A study of Mus musculus with 10 samples.

Results

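The 10 genes described here are the cadherin pair Cdh1 and Cdh2, the epithelial surface gene Epcam, the mesenchymal genes Vim and Fn1, and the transcription factors Snai1, Snai2, Zeb1, Zeb2 and Twist1. They were taken by symbol, and all 10 were among the 21853 protein-coding genes listed for each library. The data are bulk RNA-seq of 5 lines of mouse embryonic stem cells (ESCs), each measured in 2 libraries. Naïve ESCs were the wild-type J1 line, grown per the labels on gelatin in serum with LIF and the inhibitors PD0325901 and CHIR99021, which act on MEK and GSK3. The study's methods also describe serum-free N2B27 media without saying which the RNA came from. Primed ESCs (PJ1) were also wild type, but were grown on Matrigel in serum replacement with bFgf and Activin, so that pluripotent state and culture conditions cannot be told apart. AKO carried a knockout of AMPK, made at Prkaa1, the gene of the alpha 1 catalytic subunit. GKO carried a knockout of Gys1, the muscle-type glycogen synthase, made as indels in 1 exon from which single clones were picked. DKO carried both knockouts. The sample titles name AKO, GKO and DKO as J1 lines. In the paper, marker genes of these lines were measured by RT-qPCR in medium with LIF and the same inhibitors. It does not name the medium of their RNA-seq libraries separately. Which clone each library came from is not given in the sources used here, and effects of a knockout and of a clone cannot be told apart. Nothing in the labels says whether the 2 libraries of a line came from separate cultures, so p-values measure the spread between these libraries, which may be technical.

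Cadherins are calcium-dependent adhesion proteins that hold neighbouring cells together and link, through catenins, to the actin cytoskeleton. In an epithelial-mesenchymal transition (EMT), cells lower E-cadherin (Cdh1) and often raise N-cadherin (Cdh2), and factors of the Snail, Zeb and Twist families repress epithelial genes. In the mouse embryo this exchange takes place as epiblast cells pass through the primitive streak, and in culture E-cadherin holds naïve ESC colonies compact.

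The Snail and Zeb factors recognise the E-box CAGGTG, which reads CACCTG on the other strand and is 1 form of the wider letters CANNTG. Both spellings were searched on the 250 bases before each RefSeq transcript start (GRCm38.p6), without the transcribed bases. Windows were used for 5 of the 10 genes, Epcam, Vim, Snai1, Zeb2 and Twist1. Cdh1, Cdh2, Fn1, Snai2 and Zeb1 were not matched. Epcam had 2 matches, which began 187 and 19 bases before the start, and Snai1 had 1, which began 126 bases before it. The windows of Vim and Twist1 and the 4 windows of Zeb2 held none of these letters. Over all 32851 windows of this length, 17.2% held at least 1 match and 2.06% at least 2, and 66.2% held CANNTG. The windows of Epcam (chr17:87635729-87635978, plus strand) and Snai1 (chr2:167537945-167538194, plus strand) are shown. Among the windows used for these 5 genes, they are those with a match, which is in capitals. A match describes the letters and is no evidence of binding.
Epcam: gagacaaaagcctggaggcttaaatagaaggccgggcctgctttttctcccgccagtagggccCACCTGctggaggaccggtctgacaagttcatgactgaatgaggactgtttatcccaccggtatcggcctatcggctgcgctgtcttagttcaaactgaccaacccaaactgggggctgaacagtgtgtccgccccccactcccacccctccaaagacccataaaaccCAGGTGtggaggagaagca
Snai1: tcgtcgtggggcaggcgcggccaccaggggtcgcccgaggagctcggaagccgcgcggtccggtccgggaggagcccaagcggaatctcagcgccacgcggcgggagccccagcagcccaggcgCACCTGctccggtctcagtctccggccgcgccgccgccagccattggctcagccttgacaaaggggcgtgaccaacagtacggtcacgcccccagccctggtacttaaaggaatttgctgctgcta

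Values are TPM, a transcript's share of its library scaled to a fixed sum after correction for its length, so levels of different genes can be compared. Depth is unknown, since TPM keep no read counts. Fold changes are differences of log2(TPM + 1), which understate changes of genes near or below 1 TPM. The test was limma over the 12060 genes that reached 1 TPM in 2 or more libraries, with Benjamini-Hochberg adjustment over all of them and a threshold of 0.05. The libraries listed 10537 to 11113 genes at 1 TPM or more. The alpha 1 gene Prkaa1 stood at 15.5 and 16.6 TPM in the naïve libraries, at 7.24 and 6.94 in AKO and at 2.30 and 2.04 in DKO. The alpha 2 gene Prkaa2 was still present in AKO and DKO, at means of 2.57 and 3.20 TPM. Gys1 stood at 11.5 and 10.8 TPM in the naïve libraries, at 9.70 and 9.98 in GKO and at 12.1 and 11.7 in DKO, and an indel need not lower a transcript, so this level does not check the allele. The 7 pluripotency markers, among them Pou5f1 and Sox2, summed to 1034 to 2173 TPM in every library. The 8 naïve markers summed to 1232 to 1439 TPM outside the primed line and to 31.2 and 23.2 TPM in it. The primed libraries also differed from each other, since the 8 primed markers summed to 922.5 and 507.8 TPM and the 8 mesendoderm markers to 37.0 and 3.86 TPM. RNA level per cell and the share of cells that hold a transcript cannot be told apart in bulk samples.

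The primed line set the extremes for most of the genes. Cdh1 and Fn1 were lowest there and Cdh2, Epcam, Zeb1 and Zeb2 highest. By mean, Twist1 was lowest in GKO and Vim highest in DKO, and Snai1 and Snai2 were highest in DKO. Of the 10 genes, 9 entered the test, and Snai2 did not because only 1 library reached 1 TPM. Zeb2 passed the filter only through the 2 primed libraries, and Cdh2 only through the GKO, DKO and primed libraries. Counts are therefore given also for the 7 genes with at least 1 TPM in both naïve libraries. In primed against naïve ESCs, 9 of the 9 were called, 5 higher and 4 lower, where 80.0% of all tested genes were called, 37.4% higher and 42.5% lower. In GKO against naïve ESCs, 3 were higher and 3 lower, against 51.7% of all genes called, 24.7% higher and 27.1% lower. In DKO against naïve ESCs, 4 were higher and 2 lower, against 46.0% of all genes, 21.7% higher and 24.3% lower. The DKO count was 3 in place of 6 without naïve library 1 or 2 or DKO library 2. In AKO against naïve ESCs, 1 of the 9, Epcam, had an unadjusted limma p under 0.05, as did 1231 of all 12060 tested genes. After adjustment, limma called 0 of the 9 and 0.224% of all genes. The share over all genes rested on the libraries used, since the 27 genes called became 120 or 126 without primed library 1 or 2, 1 to 3 without any other library, and 0 in a fit of the AKO and naïve libraries alone, and the count of the 9 stayed at 0 in each. Among the 7 genes, 3 were higher and 4 lower in primed ESCs, 2 higher and 3 lower in GKO, and 3 higher and 2 lower in DKO. Of all 10439 genes with at least 1 TPM in both naïve libraries, 31.0% were higher and 47.7% lower in primed ESCs. The shares were 22.7% and 30.8% in GKO and 20.7% and 27.5% in DKO. With such backgrounds the counts do not set these genes apart from the rest of the transcriptome.

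**Figure D1:**
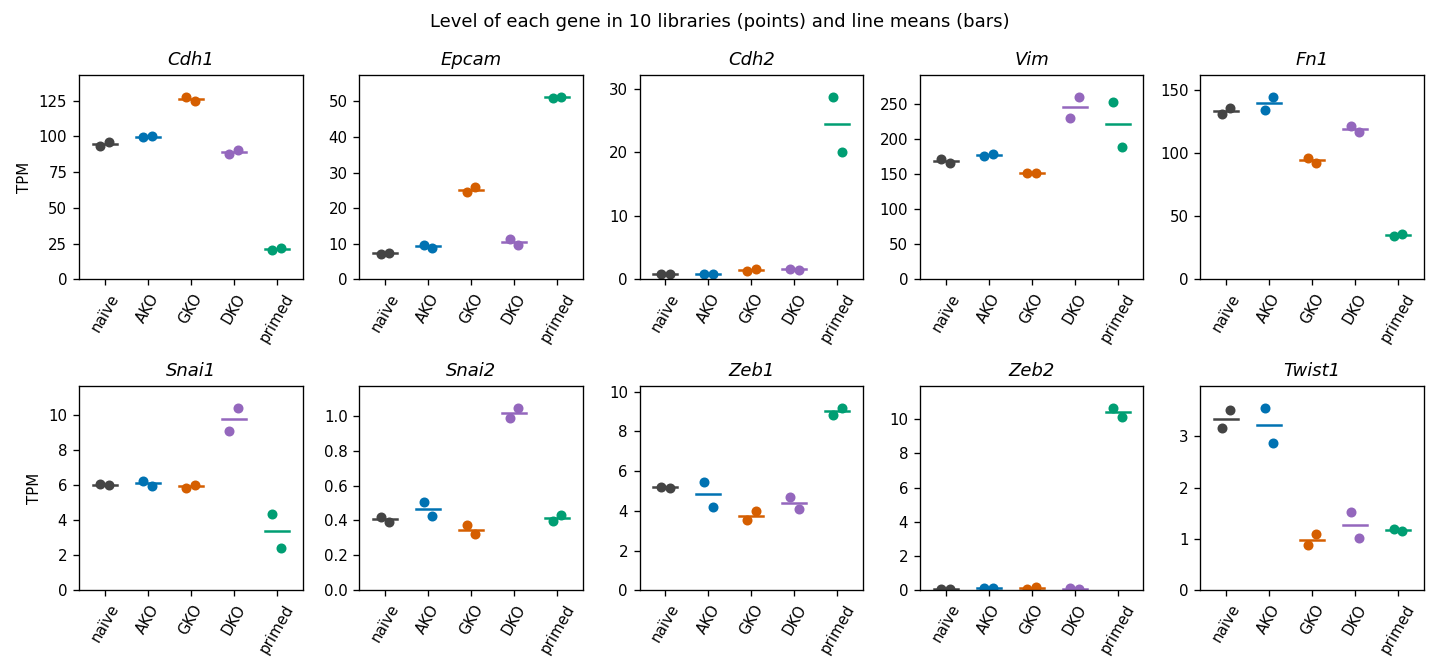
TPM (vertical axes, linear from 0) of the 10 genes in the naïve, AKO, GKO, DKO and primed lines, with a point for each library and a bar at each line's mean. Cdh1 sat between 125.1 and 127.8 TPM in GKO and between 20.3 and 22.0 TPM in primed ESCs, Zeb2 was at or below 0.174 TPM in every library outside the primed line, and Snai1 and Snai2 were highest in DKO.

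Cdh1, which encodes E-cadherin, rose in GKO and fell in primed ESCs. Its gene lies at chr8:107329941-107396880 on the plus strand (GRCm39, GENCODE). It stood at 93.3 and 96.4 TPM in the naïve libraries, at 99.4 and 100.5 in AKO, at 127.8 and 125.1 in GKO, at 87.7 and 90.4 in DKO, and at 20.3 and 22.0 in primed ESCs. No neighbouring lines in the order GKO, AKO, naïve, DKO and primed overlapped. The mean rose from 94.8 ± 2.16 TPM (SD, n = 2) in naïve ESCs to 126.5 ± 1.90 in GKO, a log2 difference of 0.41 (SE 0.048, limma adjusted p = 1.61e-04). In primed ESCs the mean was 21.2 ± 1.25 TPM, a log2 difference of -2.11 (SE 0.048, adjusted p = 9.15e-10). GKO and primed ESCs thus departed from naïve ESCs in opposite directions for this gene. Both calls held under all 18 alternative settings. DKO differed from naïve ESCs by -0.09 (95% interval -0.20 to 0.02, adjusted p = 0.162), and AKO by 0.08 (-0.03 to 0.19, adjusted p = 0.671), so neither passed the test although neither line's libraries overlapped the naïve ones. Genes on chromosome 8 had a median difference of 0.08 in GKO, which leaves a difference of 0.33 for Cdh1.

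Cdh2, which encodes N-cadherin, was below 1 TPM in naïve ESCs and rose in primed ESCs, and by a much smaller amount in GKO and DKO. Its gene lies at chr18:16700793-16942381 on the minus strand (GRCm39). It stood at 0.800 and 0.818 TPM in the naïve libraries, at 0.916 and 0.932 in AKO, at 1.36 and 1.61 in GKO, at 1.58 and 1.55 in DKO, and at 28.8 and 20.1 in primed ESCs. The naïve and AKO libraries were all below the GKO and DKO libraries, which overlapped each other, and the primed libraries were far above all others. The log2 difference from naïve ESCs was 3.79 in primed ESCs (SE 0.14, adjusted p = 1.73e-08). It was 0.46 in GKO (SE 0.14, adjusted p = 0.0230) and 0.50 in DKO (SE 0.14, adjusted p = 0.0169). In AKO the difference was 0.09 (95% interval -0.23 to 0.41, adjusted p = 0.911). The small rises were less secure than that of primed ESCs. The GKO call was lost with quantile normalisation (0.30, adjusted p = 0.129), with no filter on low values (adjusted p = 0.0522), without naïve library 1 (adjusted p = 0.0900) or 2 (adjusted p = 0.0814) and without GKO library 2 (0.38, adjusted p = 0.125). The DKO call was lost with quantile normalisation (0.39, adjusted p = 0.0649) and without naïve library 1 (adjusted p = 0.0742) or 2 (0.0676) or DKO library 1 (0.0736) or 2 (0.0666). With a pseudocount of 0.1 the differences were 0.80 in GKO and 0.87 in DKO. The higher of the primed libraries was the one with the larger sum of mesendoderm markers, at 37.0 TPM. The naïve libraries, with Cdh2 below 1 TPM, had sums of 37.4 and 36.7 TPM. The part of these markers in the Cdh2 level was not tested.

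The ratio of Cdh1 to Cdh2 in TPM gives the cadherin balance of a library in a form from which library scaling cancels. With 1 added to each level, as in the log2 scale used below, scaling no longer cancels fully. The ratio of TPM was 116.6 and 117.8 in the naïve libraries, 108.5 and 107.8 in AKO, 93.8 and 77.7 in GKO, 55.6 and 58.4 in DKO, and 0.704 and 1.09 in primed ESCs. Thus Cdh1 transcripts outnumbered Cdh2 transcripts at least 55.6-fold in every library outside the primed line, and the 2 were about equal in primed ESCs. On the scale of log2((Cdh1 + 1)/(Cdh2 + 1)), primed ESCs were lower than naïve ESCs by a difference of means of -5.91, with no test for 2 against 2 libraries, where an exact permutation test cannot go below 0.333. The 4 libraries without Gys1 (GKO and DKO) had a mean lower than the 4 with it (naïve and AKO) by a difference of -0.31, which did not pass a two-sided exact permutation test (p = 0.143). The libraries come from 2 lines in each arm, which the permutation does not take into account. On this scale the line means were 5.68 in GKO and 5.13 in DKO, against 5.73 in naïve ESCs and 5.71 in AKO. The lower mean of the libraries without Gys1 thus came mostly from DKO on this scale. GKO library 1, at 5.77, lay above the lowest library with Gys1, at 5.71. In the ratio of TPM, with no pseudocount, both GKO libraries, at 93.8 and 77.7, lay below every naïve and AKO library. Without a pseudocount the difference was -0.69 and the 2 sets did not overlap (exact permutation p = 0.0286, the smallest that 4 against 4 can give), and with quantile normalisation it was -0.08 (exact permutation p = 0.657). The lower ratio of GKO came with a higher Cdh1 and a higher Cdh2 level, and that of DKO with a higher Cdh2 level and a Cdh1 level close to that of naïve ESCs.

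**Figure D2:**
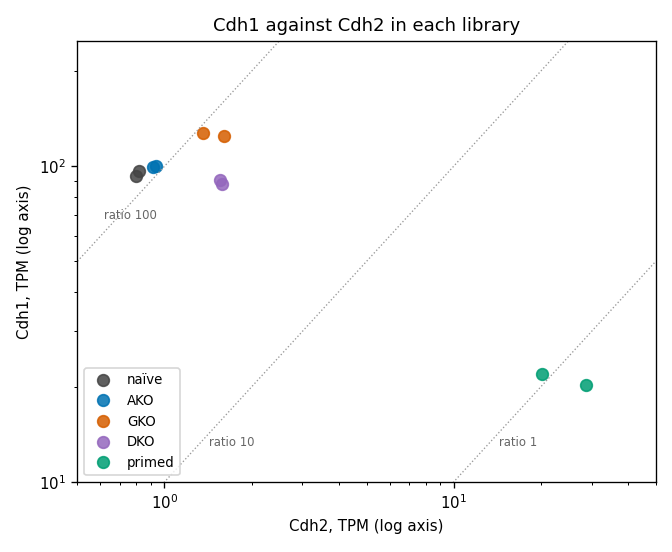
Cdh1 against Cdh2 in each library, in TPM on log axes, with dotted lines of equal ratio at 1, 10 and 100. The primed libraries lie at ratios of 0.704 and 1.09, the DKO libraries at 55.6 and 58.4, and the naïve libraries at 116.6 and 117.8.

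Epcam, which encodes a homophilic adhesion protein of epithelia and pluripotent cells, rose in GKO, DKO and primed ESCs. Its gene lies at chr17:87943407-87958557 on the plus strand (GRCm39). It stood at 7.18 and 7.54 TPM in the naïve libraries, at 9.68 and 8.87 in AKO, at 24.7 and 25.8 in GKO, at 11.4 and 9.72 in DKO, and at 50.9 and 51.3 in primed ESCs. Lines did not overlap in the order primed, GKO, DKO, AKO and naïve. The log2 difference from naïve ESCs was 2.64 in primed ESCs (SE 0.076, adjusted p = 3.77e-09), 1.65 in GKO (adjusted p = 1.46e-06) and 0.46 in DKO (adjusted p = 0.00126). All 3 calls held under all 18 alternatives. In AKO the difference was 0.30 (95% interval 0.12 to 0.47), with an unadjusted p of 0.00393 by limma and an adjusted p of 0.198. Epcam is an epithelial gene, yet it rose in primed ESCs where Cdh1 fell, while in GKO both rose.

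The mesenchymal genes Vim and Fn1 were abundant in every line and did not move together. Vim, which encodes the intermediate filament protein vimentin, lies at chr2:13578738-13587639 on the plus strand (GRCm39). It stood at 171.2 and 165.0 TPM in the naïve libraries, at 175.9 and 178.7 in AKO, at 151.7 and 151.8 in GKO, at 229.7 and 259.7 in DKO, and at 252.8 and 188.5 in primed ESCs. The DKO and primed libraries overlapped each other and were above all others. Vim rose in DKO by 0.54 (SE 0.12, adjusted p = 0.00503), a call kept under all alternatives. In primed ESCs it was higher by 0.38 (SE 0.12, adjusted p = 0.0144), but this rested on primed library 1. Without that library the difference was 0.16 (adjusted p = 0.0536), and without primed library 2 it was 0.59 (adjusted p = 7.03e-05). The primed call was also lost without naïve library 2 (adjusted p = 0.0679) and in a fit of the naïve and primed libraries alone (adjusted p = 0.0661). In GKO the difference was -0.15 (95% interval -0.41 to 0.12, adjusted p = 0.319), although both GKO libraries were below both naïve ones. When the fit held no other lines, it passed (adjusted p = 0.0150).

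Fn1, which encodes the matrix protein fibronectin, fell in primed ESCs and in GKO. Its gene lies at chr1:71624673-71692419 on the minus strand (GRCm39). It stood at 131.1 and 135.7 TPM in the naïve libraries, at 134.5 and 145.1 in AKO, at 96.8 and 92.8 in GKO, at 122.2 and 116.8 in DKO, and at 34.5 and 35.9 in primed ESCs. Only the AKO and naïve libraries overlapped among neighbours in this order of levels. The log2 difference from naïve ESCs was -1.89 in primed ESCs (SE 0.052, adjusted p = 2.73e-09) and -0.49 in GKO (SE 0.052, adjusted p = 9.29e-05), and both held under all alternatives. Fn1, a gene used as a mesenchymal marker, was therefore lowest where Cdh1 was lowest. In DKO it was lower by a difference of -0.16 (SE 0.052, adjusted p = 0.0343). That call was lost with quantile normalisation (-0.04, adjusted p = 0.634), median-ratio scaling (adjusted p = 0.0578) or no intensity trend (0.0653), and without naïve library 1 (0.0764) or 2 (0.177) or DKO library 1 (0.0531) or 2 (0.168). The 10 fibroblast markers, of which 6 are also in the list of mesenchymal genes, belong to a cell type that carries Vim and Fn1. They summed to 3.24 to 3.86 TPM in naïve ESCs, 3.48 and 3.57 in AKO and 3.40 and 3.43 in DKO. The sums were 9.57 and 10.7 TPM in GKO, and 9.95 and 16.2 in primed ESCs. Of these markers Fap was at 0 in all libraries, and Dcn and Lum were at 0 in the GKO and primed libraries, while Thy1 made up 7.14 and 8.48 TPM of the GKO sums. Their part in the Vim and Fn1 levels was not tested.

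The Snail factors are zinc finger repressors that bind E-boxes, and both were highest in DKO. Snai1 lies at chr2:167380113-167384734 on the plus strand (GRCm39). It stood at 6.04 and 6.005 TPM in the naïve libraries, at 6.25 and 5.94 in AKO, at 5.83 and 6.01 in GKO, at 9.06 and 10.4 in DKO, and at 4.37 and 2.42 in primed ESCs. The naïve, AKO and GKO libraries overlapped, DKO was above them and primed ESCs were below. In DKO the log2 difference from naïve ESCs was 0.61 (SE 0.17, adjusted p = 0.0185), a call lost without naïve library 1 (adjusted p = 0.0736) or 2 (0.0762) or DKO library 2 (0.52, adjusted p = 0.109). In primed ESCs it was -0.71 (SE 0.17, adjusted p = 0.00411), and this held under all alternatives, though without primed library 2 it was -0.39. In GKO it was -0.02 (95% interval -0.41 to 0.37, adjusted p = 0.932). Snai2, at chr16:14523425-14527252 on the plus strand (GRCm39), stood at 0.419 and 0.393 TPM in the naïve libraries, at 0.504 and 0.425 in AKO, at 0.374 and 0.321 in GKO, at 0.987 and 1.05 in DKO, and at 0.395 and 0.430 in primed ESCs. It did not enter the test, and its DKO libraries were above the other 8.

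The Zeb factors, also zinc finger repressors, were highest in primed ESCs. Zeb1 lies at chr18:5591851-5775467 on the plus strand (GRCm39). It stood at 5.21 and 5.16 TPM in the naïve libraries, at 5.44 and 4.21 in AKO, at 3.54 and 3.98 in GKO, at 4.69 and 4.11 in DKO, and at 8.81 and 9.21 in primed ESCs. Zeb1 rose in primed ESCs by 0.69 (SE 0.11, adjusted p = 2.70e-04), a call kept under all alternatives. In GKO it was lower by a difference of -0.38 (SE 0.11, adjusted p = 0.0168), a call lost without naïve library 1 (adjusted p = 0.0736) or 2 (0.0661) or GKO library 1 (-0.31, adjusted p = 0.107). In DKO the difference was -0.20 (95% interval -0.44 to 0.05, adjusted p = 0.166), and the DKO and AKO libraries overlapped. Zeb2, at chr2:44873644-45007464 on the minus strand (GRCm39), stood at 0.064 and 0.078 TPM in the naïve libraries, at 0.150 and 0.152 in AKO, at 0.062 and 0.174 in GKO, at 0.112 and 0.045 in DKO, and at 10.7 and 10.1 in primed ESCs. Its mean in primed ESCs was 10.4 ± 0.406 TPM (SD, n = 2), above that of Zeb1 at 9.01 ± 0.281, while in naïve ESCs it was 0.071 ± 0.0099 against 5.19 ± 0.035. The log2 difference between primed and naïve ESCs was 3.41 (SE 0.081) and 5.94 with a pseudocount of 0.1. Zeb2 entered the test only through the primed libraries, so that it had to differ there (limma adjusted p = 1.15e-09). The differences of GKO and DKO from naïve ESCs did not pass the test, at 0.06 (95% interval -0.12 to 0.24, adjusted p = 0.565) and 0.01 (-0.17 to 0.19, adjusted p = 0.938). The 8 neural markers, a lineage in which Zeb2 and Cdh2 are used, summed to 187.5 and 158.8 TPM in primed ESCs and to 52.2 to 104.2 TPM in the other libraries. Their part in the Zeb2 and Cdh2 levels was not tested.

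Twist1, a basic helix-loop-helix factor, fell in GKO, DKO and primed ESCs alike in direction. Its gene lies at chr12:34007645-34009828 on the plus strand (GRCm39). It stood at 3.16 and 3.52 TPM in the naïve libraries, at 3.56 and 2.87 in AKO, at 0.881 and 1.09 in GKO, at 1.53 and 1.02 in DKO, and at 1.20 and 1.16 in primed ESCs. The naïve and AKO libraries overlapped each other and were above the other 6, among which DKO overlapped both GKO and primed. The log2 difference from naïve ESCs was -1.13 in GKO (SE 0.13, adjusted p = 1.21e-04), -0.94 in DKO (adjusted p = 4.17e-04) and -0.99 in primed ESCs (adjusted p = 6.80e-05). These calls held under all alternatives in which Twist1 was tested. In AKO the difference was -0.04 (95% interval -0.33 to 0.24, adjusted p = 0.961). Twist1, an activator of the mesenchymal programme, was thus lower in primed ESCs where Zeb2 and Cdh2 were higher.

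**Figure D3:**
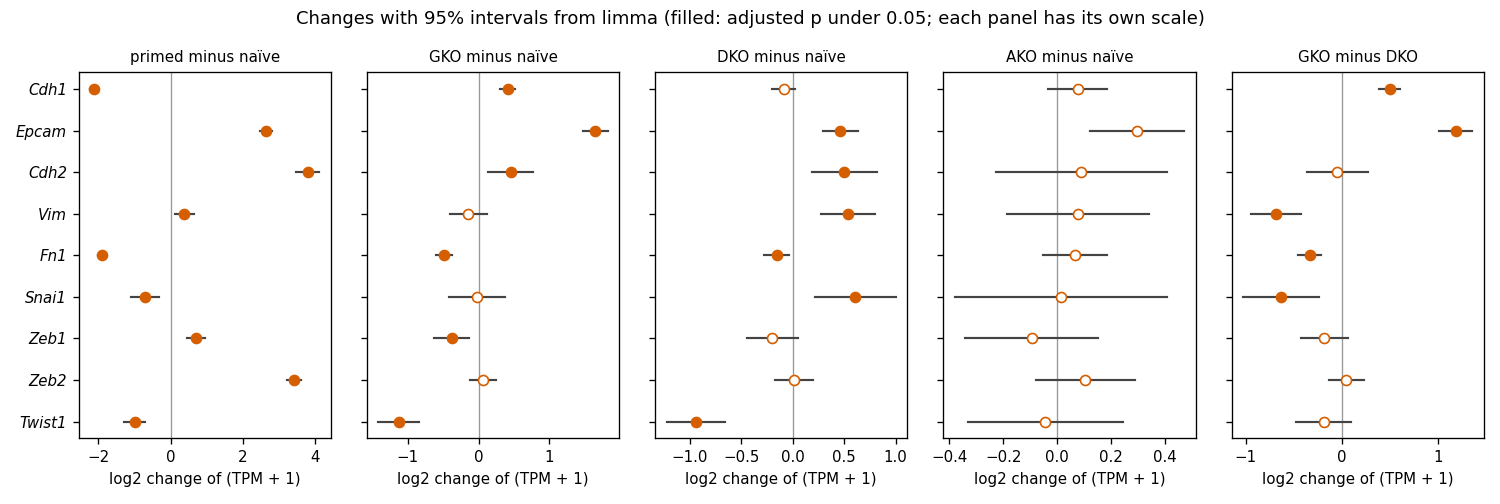
Differences in log2(TPM + 1) of the 9 tested genes in 5 comparisons, with 95% limma intervals as lines and filled points where the adjusted p was under 0.05; the horizontal scale differs between panels. Cdh1 lies at -2.11 in primed ESCs and at 0.41 in GKO, and no point is filled in the AKO panel.

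GKO and DKO share the loss of Gys1 and differ in AMPK, and their direct comparison asks how the levels differed with and without the AMPK knockout. Of the 9 genes, 2 were higher and 3 lower in GKO than in DKO, where 43.5% of all tested genes were called, 21.2% higher and 22.4% lower. Epcam was higher in GKO by 1.19 (SE 0.076, adjusted p = 1.15e-05) and Cdh1 by 0.50 (SE 0.048, adjusted p = 8.07e-05), so both epithelial surface genes stood higher in the line without the AMPK knockout. Vim was lower in GKO by a difference of -0.68 (adjusted p = 0.00166), Fn1 by -0.33 (adjusted p = 0.00109) and Snai1 by -0.63 (adjusted p = 0.0173). The Snai1 call was lost without GKO library 1 (adjusted p = 0.0812) or 2 (0.0655) or DKO library 2 (0.106), and the other 4 held under all alternatives. Cdh2 differed by -0.05 (95% interval -0.36 to 0.27, adjusted p = 0.820), Twist1 by -0.19 (-0.47 to 0.10, adjusted p = 0.260), Zeb1 by -0.18 (-0.43 to 0.06, adjusted p = 0.206) and Zeb2 by 0.05 (-0.13 to 0.23, adjusted p = 0.645).

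The interaction term asks whether loss of Gys1 changed a gene differently with AMPK (GKO minus naïve) than without it (DKO minus AKO). Without AMPK here means with the Prkaa1 knockout. Prkaa1 stood at a mean of 7.09 TPM in AKO and 2.17 in DKO, and Prkaa2 was still present in both. It passed for 4 of the 9 genes, where 25.8% of all tested genes were called. Cdh1 changed by 0.41 with AMPK and by -0.17 without it, and the 2 changes differed by 0.58 (SE 0.068, adjusted p = 6.27e-04). Epcam changed by 1.65 and 0.17, which differed by 1.48 (SE 0.11, adjusted p = 8.59e-05). These held under all alternatives. Vim changed by -0.15 and 0.46, which differed by -0.61 (SE 0.16, adjusted p = 0.0262), and Fn1 by -0.49 and -0.22, which differed by -0.26 (SE 0.073, adjusted p = 0.0287). The Vim call was lost with no filter on low values and without any 1 library of the naïve, AKO and GKO lines or DKO library 2, with adjusted p of up to 0.0949. The Fn1 call was lost with no intensity trend and without either naïve or GKO library, AKO library 1 or DKO library 1, with adjusted p of up to 0.107. The count of genes was 2 without naïve library 1 or 2, AKO library 1 or GKO library 1 or 2. Snai1 changed by -0.02 and 0.60, a difference of -0.62 that did not pass (adjusted p = 0.0964) and passed without primed library 1 (0.00318) or 2 (0.00307) and in a fit without the primed line (0.00301). Twist1 changed by -1.13 and -0.90, and Cdh2 by 0.46 and 0.41, and their interaction terms were -0.23 (95% interval -0.64 to 0.17, adjusted p = 0.373) and 0.04 (-0.41 to 0.49, adjusted p = 0.900).

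The wider epithelial and mesenchymal programmes were followed in 6 gene lists, whose counts are set beside the backgrounds above. A gene that passed the filter only through the line in which it was high had to differ. For several lists, counts against naïve ESCs are therefore also given for the genes with at least 1 TPM in both naïve libraries. Of all 10439 such genes, 31.0% were higher and 47.7% lower in primed ESCs, 22.7% and 30.8% in GKO, and 20.7% and 27.5% in DKO. Of 30 genes of epithelial junctions and keratins, 29 were tested. In GKO 19 rose and 0 fell, with a median difference of 0.55 against -0.01 over all tested genes, and 10 were not called. Of the 17 with at least 1 TPM in naïve ESCs, 13 rose and 0 fell. St14, a membrane serine protease of epithelia, rose by 2.31 (adjusted p = 1.56e-07), and Lsr, a component of tricellular junctions, by 1.82 (adjusted p = 7.46e-06). The 8 markers of trophectoderm, also an epithelium, summed to 43.0 and 42.8 TPM in naïve ESCs, 38.6 and 38.5 in AKO, 61.2 and 62.5 in GKO, 47.0 and 45.3 in DKO and 10.8 and 8.14 in primed ESCs. Of the 4 tested, 2 were higher in GKO, Tfap2c by 1.72 (adjusted p = 0.00217) and Cdx2 by 1.13 (adjusted p = 2.83e-04). Eomes (-0.20, adjusted p = 0.713) and Tead4 (-0.007, adjusted p = 0.937) were not called in GKO. Elf5, Krt7 and Gata3 were at most 0.182 TPM there. Cdx2 was also higher in DKO, by 1.11 (adjusted p = 4.17e-04). The part of the trophectoderm markers in the junction genes was not tested. In DKO 12 junction and keratin genes rose and 1 fell, with a median of 0.30 against -0.01, and of the 17 there were 11 and 1. The desmosomal cadherin Dsg2 rose by 1.84 (adjusted p = 6.87e-07) and St14 by 1.74 (adjusted p = 8.79e-07). In primed ESCs 20 rose and 9 fell, with a median of 0.69 against -0.05. Lsr rose by 3.95 and the claudin Cldn6 by 3.17, while Cldn4 fell by 2.86. Of the 17 with at least 1 TPM in naïve ESCs, 9 rose and 8 fell, and 3 of the 20 that rose (Dsc2, Marveld2 and Ocln) were tested only through the primed libraries. Between GKO and DKO 9 were higher and 3 lower, with a median of 0.18, led by Lsr (0.99) and Cldn3 (0.95), and Dsg2 was lower by a difference of -0.91.

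The epithelial regulators, of which 8 of 10 were tested, fell for the most part in primed ESCs. There 1 rose and 7 fell, with a median of -1.13. The 1 that rose, Esrp1, was tested only through the primed libraries, and all 6 with at least 1 TPM in naïve ESCs fell. Elf3, an epithelial Ets factor, fell by 2.78 (adjusted p = 2.30e-08). In GKO 2 rose and 2 fell, and Elf3 (0.78, adjusted p = 3.85e-04) and the grainyhead factor Grhl3 (0.59, adjusted p = 1.96e-04) were those that rose. In DKO 3 rose and 3 fell, among the former Elf3 (0.33) and the splicing regulator Esrp2 (0.20). Between GKO and DKO 3 were higher and 1 lower, with Elf3 higher by 0.45 and Esrp2 lower by a difference of -0.45.

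Of 30 mesenchymal genes of matrix, cytoskeleton and cell surface, 22 were tested. In primed ESCs 14 rose and 4 fell, with a median of 0.84, but 7 of the 14 were tested only through the primed libraries (Cd44, Cnn1, Col1a1, Col1a2, Fbn1, Loxl2 and Tagln). Of the 11 with at least 1 TPM in naïve ESCs, 4 rose and 4 fell, with a median of 0.29. Among the 14 that rose, the matrix protease Mmp2 rose from 0.828 to 27.8 TPM (3.98 on the log2 scale, adjusted p = 4.59e-10). The smooth muscle gene Tagln, which had to differ because it was tested only through the primed libraries, was higher by 3.95. The basement membrane gene Nid1 fell by 2.63 (adjusted p = 2.90e-09). In GKO 7 rose and 0 fell, with a median of 0.12, led by Thy1 (1.24, adjusted p = 0.0131) and the galectin Lgals1 (1.16, adjusted p = 1.13e-05). In DKO 8 rose and 2 fell, with a median of 0.07. Nid1 rose by 1.02 and the proteoglycan Vcan by 0.94, and the fibronectin receptor subunit Itga5 fell by 0.57. Between GKO and DKO 7 were higher, among them Thy1 (1.57), and 5 lower, among them Vcan (-0.81) and Sparc (-0.59). Of the 11, 4 rose and 0 fell in GKO, and 5 rose and 2 fell in DKO. Fn1, which is outside this list, fell in GKO.

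Of 15 other EMT transcription factors, 9 were tested. In DKO 0 rose and 7 fell, with a median of -0.37, and the Id proteins, which block helix-loop-helix factors, were among them (Id1 at -1.002, adjusted p = 0.00179, and Id2 at -0.71, adjusted p = 0.00553). In GKO 2 rose and 4 fell. The helix-loop-helix factor Tcf12 rose by 0.70 and Klf8 by 0.24, and Id2 fell by 1.36 (adjusted p = 1.39e-04) and Tcf4 by 0.80. In primed ESCs 5 rose and 3 fell. Id2 rose by 3.95 there and Sox9, tested only through the primed libraries, by 3.43, and Klf8 fell by 3.72 and Id3 by 1.05. Between GKO and DKO 4 were higher and 1 lower, and Id1 was higher by 1.44 (adjusted p = 2.97e-04) and Klf8 by 0.61 (adjusted p = 8.60e-05). Of the 8 with at least 1 TPM in naïve ESCs, 4 rose and 3 fell in primed ESCs. Of the same 8, 2 rose and 4 fell in GKO, and 0 rose and 7 fell in DKO. Id2 thus went down in GKO and DKO and up in primed ESCs.

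Of 9 other classical and related cadherins, 4 were tested, and they are named here after their values were seen. Cdh4 was tested only through the DKO libraries and Cdh10 only through the primed ones, so that each had to differ there. P-cadherin, Cdh3, rose in primed ESCs by 1.01, in GKO by 0.79 and in DKO by 0.80 (adjusted p = 2.11e-05, 3.79e-04 and 4.50e-04). It stood at 1.23 and 1.17 TPM in naïve ESCs, 2.60 and 3.00 in GKO, 2.84 and 2.79 in DKO and 2.96 and 3.93 in primed ESCs. R-cadherin, Cdh4, stood at 2.22 and 2.21 TPM in DKO and at 0.283 to 0.606 TPM in the other libraries. Cdh10 stood at 2.64 and 2.37 TPM in primed ESCs and at most 0.090 TPM elsewhere. Cdh24 rose in primed ESCs by 0.82 and in DKO by 0.29. The counts were 3 higher and 0 lower in primed ESCs and in DKO, and 1 higher and 1 lower in GKO. Between GKO and DKO 0 were higher and 2 lower. Of the 2 with at least 1 TPM in naïve ESCs, 2 rose in primed ESCs and in DKO, 1 rose in GKO, and 0 fell.

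Catenins and other cadherin partners, of which 13 of 14 were tested, split evenly in primed ESCs, where 6 rose and 6 fell. Afdn, the nectin-bound adaptor afadin, rose by 1.04 and Ctnnd2 by 0.88, while plakoglobin, Jup, fell by 1.23 (adjusted p = 8.29e-07) and Nectin1 by 0.94. In GKO 3 rose and 2 fell, and in DKO 5 rose and 2 fell. The junctional actin linker vinculin, Vcl, rose in GKO by 0.34 and in DKO by 0.50, and Nectin3 fell by 0.46 and 0.57. Afdn rose in GKO by 0.34 and fell in DKO by 0.41, and the 2 lines differed by 0.74 (adjusted p = 5.54e-05). Actn1 rose in DKO by 0.48. Between GKO and DKO 3 were higher and 7 lower, with Nectin2 higher by 0.38 and p120-catenin, Ctnnd1, lower by a difference of -0.30. In AKO against naïve ESCs, limma called 0 genes in each of the 6 lists. Unadjusted limma p-values under 0.05 occurred for 5 of 29 junction genes and 1 of 22 mesenchymal genes. They also occurred for 2 of 9 EMT factors, 3 of 13 catenins and partners, and 1231 of all 12060 tested genes.

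**Figure D4:**
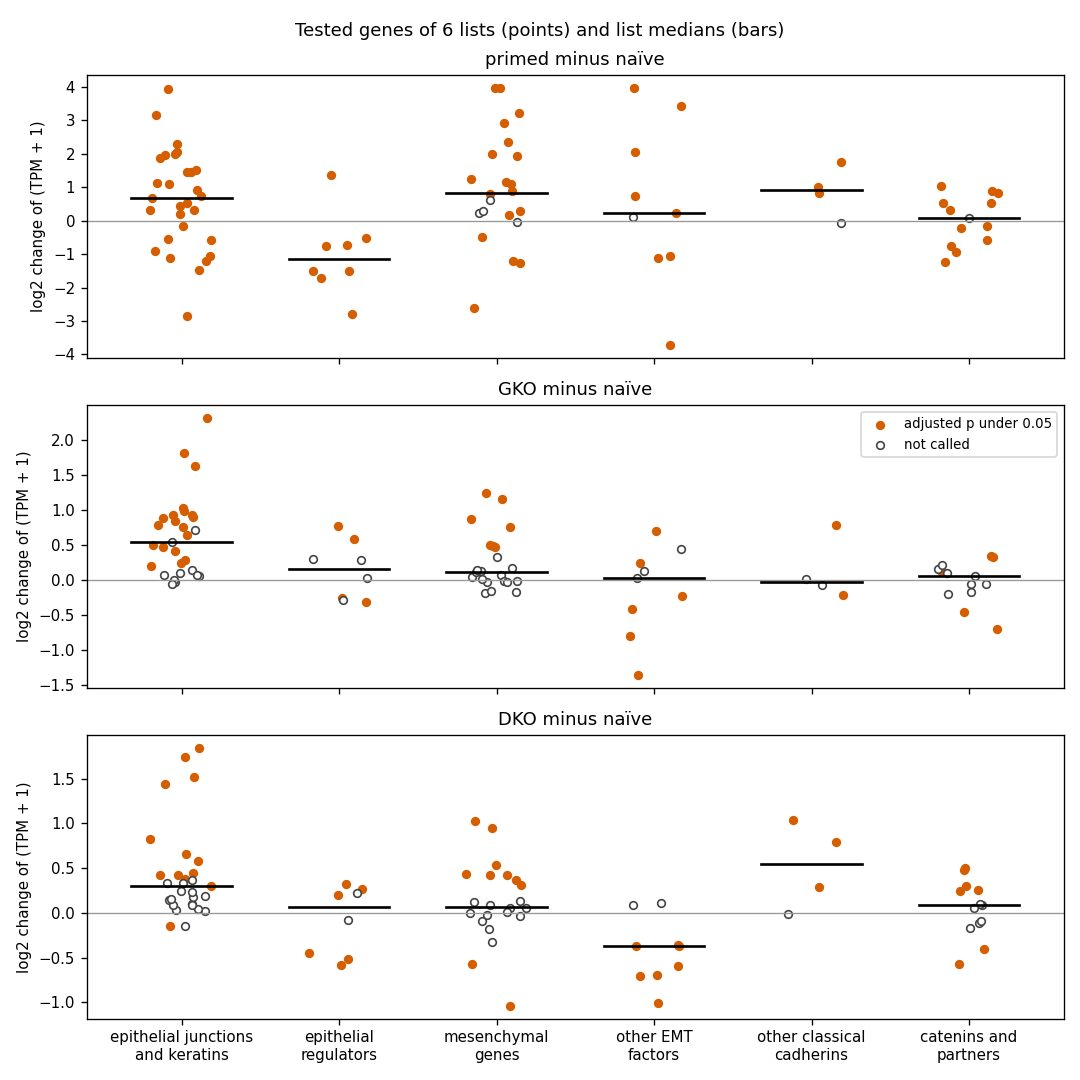
Differences in log2(TPM + 1) from naïve ESCs of the tested genes of 6 lists in primed ESCs, GKO and DKO, with a point per gene, filled where the adjusted p was under 0.05, and a bar at each list's median. Epithelial junction and keratin genes have medians of 0.69, 0.55 and 0.30 in the 3 panels, and epithelial regulators -1.13 in the primed panel.

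The genes whose levels followed each cadherin most closely were found by Pearson's r of log2(TPM + 1) over the 10 libraries, among 8761 tested genes whose line means spanned at least 0.5. This is a description across libraries of 5 lines, and the distance of the primed libraries from the rest weighs on it. Closest to Cdh1 were Tgm1, a transglutaminase (r = 0.997), Pcsk6, a proprotein convertase (r = 0.997), and Khdc3 (r = 0.996). Tgm1 stood at 15.3 and 15.0 TPM in naïve ESCs, 20.9 and 19.1 in GKO, 12.2 and 11.4 in DKO and 0.349 and 0.412 in primed ESCs. Its order of lines matched that of Cdh1 in having GKO highest and DKO next to lowest, above primed ESCs. Closest to Cdh2 were Ap1s3, an adaptor complex subunit (r = 0.999), Sqle, the squalene epoxidase of cholesterol synthesis (r = 0.999), and Nsg1 (r = 0.998). Sqle stood at 62.5 and 62.6 TPM in naïve ESCs, 69.9 and 68.4 in GKO, 69.1 and 68.1 in DKO and 141.8 and 129.7 in primed ESCs.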

How the data were processed

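The authors trimmed reads with Trim Galore 0.6.6, aligned them with STAR, estimated expression with RSEM 1.3.3 and deposited TPM for protein-coding genes. The study's methods name GRCm39, and the submitters' processing notes name GRCm38 and STAR 2.7.9a. The library kit and sequencer also differ between labels and methods. A gene that rises strongly lowers the TPM of others slightly, and RSEM divides reads shared by similar transcripts by estimation.

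Here log2(TPM + 1) of the 12060 genes past the filter was fitted in limma 3.58.1 (R 4.3.3), with 1 mean per line over all 10 libraries, an intensity trend and Benjamini-Hochberg adjustment (threshold 0.05). The code was tested on simulated data. The exact permutation test of the cadherin ratio was run in Python 3.11.15 with numpy 2.4.6. Alternatives changed the pseudocount, filter, scaling or fit, or left out each library. Members and lists were chosen with earlier results of these data known. From each list, up to 2 called genes per direction with the largest change were eligible for naming, if the libraries of the lines did not overlap and the higher line reached a mean of 5 TPM. Some list genes are not reported here by name. Counts over genes with at least 1 TPM in both naïve libraries were chosen after seeing the data.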

Additional observations from a re-analysis of the deposited data

Results flagged for a closer look

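For 4 of the 9 tested genes the change with loss of Gys1 differed between lines with AMPK (GKO against naïve ESCs) and without it (DKO against AKO), by the interaction term of the limma fit. The same term was called for 25.8% of all tested genes. Without AMPK again means with the Prkaa1 knockout, under which Prkaa1 stood at a mean of 7.09 TPM in AKO and 2.17 in DKO. Cdh1 rose with AMPK and was slightly lower without it, and the changes differed by 0.58 on the log2 scale. Epcam rose with AMPK by an amount larger by 1.48. For Vim the change with AMPK was lower by a difference of -0.61, and for Fn1 by -0.265. Leaving out single libraries ended the calls of Vim and Fn1 but not those of Cdh1 and Epcam.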

How the results depend on the processing

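Of 960 values of the tested genes under alternatives, 899 kept their direction and side of the threshold, 44 lost their call, 4 gained one and 13 changed sign, and 34 of 54 gene comparisons kept both throughout. Every change of sign was in a comparison that was not called. These were Snai1 in GKO with median-ratio scaling (0.00146), Zeb2 in DKO with quantile normalisation (-0.0135) and the Cdh2 interaction with quantile normalisation (-0.00902). Leaving out 1 library gave ranges of -0.0121 to 0.133 for Zeb2 in GKO, -0.0354 to 0.0542 for Zeb2 in DKO, -0.162 to 0.0738 for Twist1 in AKO, -0.0175 to 0.0446 for Snai1 in AKO and -0.248 to 0.0569 for Zeb1 in AKO. For GKO against DKO the ranges were -0.118 to 0.0262 for Cdh2 and -0.0215 to 0.123 for Zeb2, and for the Cdh2 interaction -0.0294 to 0.115. Genes called in DKO ranged from 3 to 6 when 1 library was left out, with 3 without naïve library 1 or 2 or DKO library 2, and in the interaction from 2 to 5, with 2 without naïve library 1 or 2, AKO library 1 or GKO library 1 or 2. A lone library was assumed to vary like the other lines. The causes were not tested. The ratio difference between libraries without and with Gys1 was -0.626 with a pseudocount of 0.1 and -0.692 with none (exact permutation p = 0.0286 for both), and leaving out 1 library gave -0.433 to -0.211. The primed difference was -6.89 and -7.06 with these pseudocounts, which act on the low Cdh2 values. The filter at a mean of 5 TPM dropped Zeb2 and Twist1.

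Replicate numbers did not pair the samples, since correlations of deviations between libraries of 1 number ranged from -0.128 to 0.078. With the replicate number as a block, 9, 6, 6, 0, 5 and 4 genes were called in primed, GKO, DKO and AKO against naïve ESCs, GKO against DKO and the interaction, as without it.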
